A study of Mus musculus with 9 samples.

Results

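Genes of the SOX family were examined for peaks of the chromatin remodeller CHD7 in cardiac progenitor (CP) cells. The 10 genes were Sox4, Sox5, Sox6, Sox7, Sox8, Sox9, Sox10, Sox11, Sox17 and Sox18. A peak was given to a gene when its midpoint lay in the regulatory domain of that gene. The domain had a basal stretch around the transcription start site (TSS), 5 kb on the upstream side and 1 kb on the other. From there it was extended both ways until it met the basal stretch of the next gene, or for at most 1 Mb. By this rule 15 of the 3761 CHD7 peaks in the list belonged to SOX genes, and 5 of the 10 genes had at least 1 peak. Sox4 and Sox11 had 4 peaks each, Sox5 and Sox9 had 3 each, and Sox6 had 1. Sox7, Sox8, Sox10, Sox17 and Sox18 had 0. When long intergenic noncoding RNA (lincRNA) genes were also allowed to end a domain, the total was 8, with Sox4 at 0, Sox11 and Sox9 at 2 each, Sox5 at 3 and Sox6 at 1.

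The peaks came from CUT&RUN, in which a nuclease directed to an antibody releases the DNA around a chromatin protein. The cells were wild-type (WT) mouse embryonic stem cell derivatives at day 5 of their differentiation to cardiomyocytes, so the model was a culture, not an embryonic heart. The study had 9 libraries, with 3 biological replicates each for anti-CHD7, for IgG as negative control and for input without antibody. The data were 1 list of positions for the anti-CHD7 replicates together, with no height, read count or P-value. No value could therefore be given per replicate, the depth behind each peak was unknown, and the background in the IgG and input libraries could not be set beside the peaks. The list held no expression values, so the cell type of the label could not be checked against marker genes, nor could it be seen whether a SOX gene was transcribed.

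SOX proteins are transcription factors that bind the minor groove of DNA through a shared HMG box and bend it, and they usually act with a partner factor. They are divided into groups by the similarity of that box. Sox4 and Sox11 are of the SOXC group, which acts in progenitors of the nervous system and in the outflow tract of the heart. Sox5 and Sox6, of the SOXD group, have no activation domain of their own and work beside Sox9 in cartilage. Sox8, Sox9 and Sox10 form the SOXE group of the neural crest, in which Sox9 also acts in cartilage, testis and endocardial cushions. Sox7, Sox17 and Sox18 form the SOXF group of endothelium, and Sox17 also marks endoderm. CHD7 moves nucleosomes with the energy of ATP. Loss of function of a single copy of its gene underlies most human cases of CHARGE syndrome, in which heart defects are common.

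The sequences of 9 peak centres are given first, since the list held positions and the sequence under them was the only other readout of the peaks. Each is the 300 bp around a midpoint, lies wholly inside its peak, and is written for the plus strand of GRCm38, the assembly of mm10. Capitals mark a SOX consensus (AACAAT or AACAAAG) or a GATA consensus (AGATAA) on either strand, and no capitals means that neither was present. Peaks are named by gene and by distance from its TSS in kb, where a minus sign stands for upstream and a plus sign for downstream. The first 5 are, for each gene with peaks, the one of its own peaks nearest to its TSS.
Sox4 +11.0 kb, chr13:28942521-28942820: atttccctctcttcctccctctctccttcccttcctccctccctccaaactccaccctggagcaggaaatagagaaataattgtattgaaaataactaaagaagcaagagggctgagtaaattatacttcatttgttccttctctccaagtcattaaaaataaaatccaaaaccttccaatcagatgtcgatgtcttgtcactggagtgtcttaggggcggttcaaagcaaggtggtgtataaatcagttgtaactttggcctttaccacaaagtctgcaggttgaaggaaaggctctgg
Sox11 +23.6 kb, chr12:27318808-27319107: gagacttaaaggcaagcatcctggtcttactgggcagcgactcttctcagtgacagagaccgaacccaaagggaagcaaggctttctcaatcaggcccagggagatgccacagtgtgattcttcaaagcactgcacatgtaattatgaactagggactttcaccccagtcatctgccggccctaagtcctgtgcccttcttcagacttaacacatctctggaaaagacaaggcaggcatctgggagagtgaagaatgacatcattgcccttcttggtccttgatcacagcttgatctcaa
Sox5 +342 kb, chr6:143866892-143867191: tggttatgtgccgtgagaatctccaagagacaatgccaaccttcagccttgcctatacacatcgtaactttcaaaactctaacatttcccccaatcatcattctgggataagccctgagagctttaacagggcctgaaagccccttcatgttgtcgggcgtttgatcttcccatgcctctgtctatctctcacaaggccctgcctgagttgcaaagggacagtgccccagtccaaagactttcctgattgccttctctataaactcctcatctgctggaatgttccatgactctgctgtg
Sox6 +621 kb, chr7:115373936-115374235: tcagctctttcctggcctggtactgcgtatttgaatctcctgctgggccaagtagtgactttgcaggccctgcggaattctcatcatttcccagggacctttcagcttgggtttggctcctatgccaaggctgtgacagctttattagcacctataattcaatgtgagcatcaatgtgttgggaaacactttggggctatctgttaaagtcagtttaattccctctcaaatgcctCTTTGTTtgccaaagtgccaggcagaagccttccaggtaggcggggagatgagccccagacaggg
Sox9 +11.0 kb, chr11:112793058-112793357: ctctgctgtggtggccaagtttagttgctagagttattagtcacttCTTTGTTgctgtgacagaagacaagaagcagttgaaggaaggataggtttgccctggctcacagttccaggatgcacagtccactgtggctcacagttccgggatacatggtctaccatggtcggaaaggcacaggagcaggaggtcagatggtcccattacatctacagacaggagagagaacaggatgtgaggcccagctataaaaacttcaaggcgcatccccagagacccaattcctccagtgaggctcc
The 2 windows of 300 bp that held both a SOX and a GATA match are given next, at Sox4 and Sox5.
Sox4 +225 kb, chr13:28729038-28729337: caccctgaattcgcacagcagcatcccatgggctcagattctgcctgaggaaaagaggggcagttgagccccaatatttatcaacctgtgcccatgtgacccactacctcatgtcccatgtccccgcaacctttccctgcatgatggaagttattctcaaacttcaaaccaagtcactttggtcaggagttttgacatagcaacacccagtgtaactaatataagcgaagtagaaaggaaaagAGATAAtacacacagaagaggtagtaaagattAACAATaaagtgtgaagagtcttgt
Sox5 −773 kb, chr6:144981949-144982248: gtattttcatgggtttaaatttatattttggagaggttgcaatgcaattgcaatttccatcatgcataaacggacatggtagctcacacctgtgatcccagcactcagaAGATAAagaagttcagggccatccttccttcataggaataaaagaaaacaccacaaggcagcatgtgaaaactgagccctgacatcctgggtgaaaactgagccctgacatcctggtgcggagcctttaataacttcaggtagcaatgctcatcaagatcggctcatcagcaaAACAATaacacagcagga
Those of a pair of neighbouring peaks at Sox11, chosen after the values had been seen for their 3 GATA matches, complete the set.
Sox11 +212 kb, chr12:27130307-27130606: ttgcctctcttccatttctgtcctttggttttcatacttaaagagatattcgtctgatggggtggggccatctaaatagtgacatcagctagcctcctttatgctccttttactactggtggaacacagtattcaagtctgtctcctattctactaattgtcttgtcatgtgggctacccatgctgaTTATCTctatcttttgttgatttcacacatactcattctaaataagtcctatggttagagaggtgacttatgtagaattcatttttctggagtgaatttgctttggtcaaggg
Sox11 +215 kb, chr12:27127097-27127396: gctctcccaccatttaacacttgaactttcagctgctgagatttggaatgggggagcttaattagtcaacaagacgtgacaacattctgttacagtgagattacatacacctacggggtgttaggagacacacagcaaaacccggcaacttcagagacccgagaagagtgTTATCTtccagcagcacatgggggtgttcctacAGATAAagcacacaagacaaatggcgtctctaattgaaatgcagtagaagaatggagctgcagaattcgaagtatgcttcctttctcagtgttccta

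In the SOXC group, CHD7 peaks lay on both sides of Sox4 but only downstream of Sox11. Sox4 (ENSMUSG00000076431.4, chr13:28948919-28953713, minus strand) had a domain of 1596 kb, which reached 901 kb in front of the TSS and 695 kb behind it. Its upstream peak lay 360 kb away at chr13:29313362-29313874, inside an intron of Cdkal1, and was 513 bp wide. This peak was nearer to the TSS of Cdkal1, at 161 kb, than to that of Sox4. The other 3 lay downstream and past the end of the gene, which is 4795 bp long. The nearest of these, at +11.0 kb (chr13:28941880-28943461), was 6.25 kb past the gene's end and 1582 bp wide. It was intergenic, with its midpoint 0.378 kb from the TSS of the long noncoding RNA (lncRNA) gene Gm26735. The peaks at +72.5 kb (chr13:28880969-28881409, 441 bp) and +225 kb (chr13:28728874-28729501, 628 bp) both lay in introns of the lncRNA gene 2610307P16Rik. The former was 2.27 kb from a TSS of that lncRNA. The 3 downstream peaks were also in the domain of the predicted gene Gm11361. None of the 4 was given to Sox4 when lincRNA genes ended domains too.

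Sox11 (ENSMUSG00000063632.6, chr12:27334264-27342574, minus strand) had a domain of 1872 kb, the longest among the 10 genes. None of its 4 peaks lay in the 1000 kb upstream of its TSS. The downstream peaks fell into 2 pairs. The first pair was at +23.6 kb (chr12:27318275-27319641, 1367 bp) and +30.7 kb (chr12:27311446-27312371, 926 bp), in intergenic sequence with 7.05 kb between midpoints. The second pair, at +212 kb (chr12:27130223-27130690, 468 bp) and +215 kb (chr12:27126755-27127739, 985 bp), was 3.21 kb apart in an intron of the lncRNA gene Gm9866. In each pair the midpoints were under 10 kb apart, which held for 4 of the 15 SOX peaks (26.7%) and for 5.66% of all peaks. The 4 are these 2 pairs at Sox11, so they were not independent and no interval is given. All 4 were nearer to the TSS of Sox11 than to any other protein-coding TSS, although the rule also gave them to Cmpk2.

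**Figure D1:**
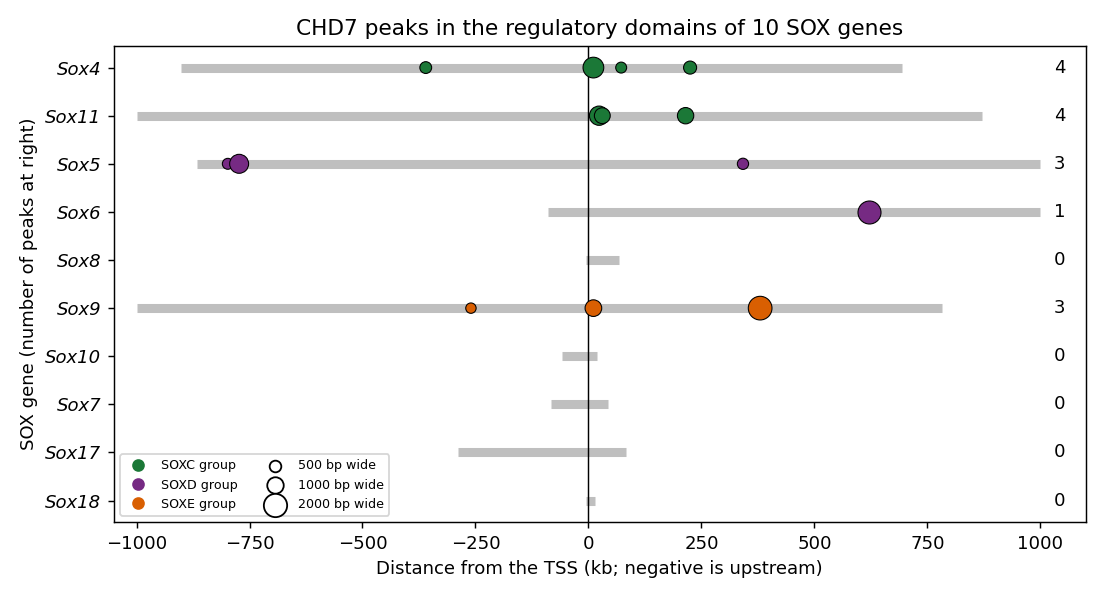
Position of each CHD7 peak (circle, area in proportion to peak width) relative to the TSS of the 10 SOX genes, in kb with upstream to the left. Grey bars are the regulatory domains and the number of peaks stands at the right. The 5 genes with peaks have the 5 longest bars, and no circle lies within 10 kb of the TSS of its SOX gene.

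In the SOXD group the peaks lay 342 to 798 kb from the TSS. Sox5 (ENSMUSG00000041540.16, chr6:143828425-144781977, minus strand) is a long gene of 953553 bp with many promoters, and the TSS used here, at position 144209480, lies within it. Its peaks at −798 kb (chr6:145007086-145007525, 440 bp) and −773 kb (chr6:144981436-144982761, 1326 bp) were 225 kb and 200 kb upstream of the outermost start of the gene. The first was inside an intron of Bcat1, the cytosolic branched-chain aminotransferase gene, and the second was intergenic. Both were nearer to a TSS of Bcat1, at 25.5 kb and 50.7 kb, than to one of Sox5. The third peak, at +342 kb (chr6:143866810-143867274, 465 bp), was in intron 10 of the Sox5 transcript used here and was the 1 SOX peak inside the body of its own gene. Another Sox5 transcript starts 80.0 kb from it. The rule also gave this peak to Etnk1.

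Sox6 (ENSMUSG00000051910.13, chr7:115470872-116038796, minus strand) had a single peak, at +621 kb (chr7:115373112-115375059). It was intergenic, lay 96.8 kb past the end of the gene and 224 kb from the nearest Sox6 transcript start, and was also in the domain of Insc. At 1948 bp it was the second widest of the 15 and wider than 96.6% of all peaks. The domain of Sox6 reached 1000 kb downstream but 88.5 kb upstream, where the predicted gene Gm4353 ended it. The CHD7 peak closest to the Sox6 TSS, at −212 kb in an intron of Plekha7, was therefore outside the domain.

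In the SOXE group, Sox9 alone had peaks. Sox9 (ENSMUSG00000000567.5, chr11:112782224-112787760, plus strand) lies in a gene desert, and its domain of 1783 kb reached the full 1000 kb upstream. The upstream peak at −260 kb (chr11:112522495-112522891) was intergenic and 397 bp wide, the narrowest of the 15. It was the 1 SOX peak that the rule gave to no second gene. The peak at +11.0 kb (chr11:112792698-112793717, 1020 bp) lay 5.45 kb past the end of Sox9, in an exon of the lncRNA gene Gm11681. The peak at +380 kb (chr11:113161522-113163584) was in an intron of the lncRNA gene 2610035D17Rik, with its midpoint 10.5 kb from a TSS of that lncRNA. At 2063 bp it was the widest of the 15 and wider than 97.6% of all peaks. Both downstream peaks were also in the domain of Slc39a11, and all 3 were nearer to the TSS of Sox9 than to any other protein-coding TSS.

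Sox8 and Sox10 had no peak in domains of 73.4 kb and 77.9 kb. The closest peak to the Sox8 TSS was 340 kb downstream, in an intron of Unkl. That of Sox10 was 102 kb downstream and next to the TSS of Ankrd54. The 3 SOXF genes had none either. The domain of Sox7 was 125 kb long and its closest peak was at +118 kb, in the domains of Rp1l1 and Prss55. The domain of Sox17 was 370 kb long and its closest peak was at +102 kb, in an intron of Rp1. Sox18 had the shortest domain, 18.6 kb, and a peak in coding sequence of Prpf6 lay 38.8 kb away, outside that domain.

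The number of peaks was read against the length of the domain, since a longer domain can hold more midpoints. Over the 21911 protein-coding genes, 22.7% had at least 1 peak, against 5 of the 10 SOX genes. By class of domain length this background was 11.6% under 100 kb, 32.6% from 100 to 500 kb, 48.1% from 500 kb to 1 Mb and 40.7% over 1 Mb. The 5 SOX genes with peaks all had domains over 1 Mb, from 1089 to 1872 kb, and the 5 without had domains from 18.6 to 370 kb. Sox8, Sox10 and Sox18 were in the first class and Sox7 and Sox17 in the second, where most genes had no peak. The groups of SOX genes thus differed in domain length as well as in peaks, and these cannot be told apart.

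Among the 1080 genes with a domain over 1 Mb, 640 had no peak and 87 had at least 3 (8.06%), while Sox4, Sox5, Sox9 and Sox11 each had 3 or 4. Over all genes, 1.75% had at least 3 peaks, 116 had at least 4, and the most was 7. The 5 long SOX domains summed to 8.21 Mb and held 1.83 peaks per Mb, whereas the pooled density over all domains above 1 Mb was 0.553 per Mb. Over the domains of all 10 SOX genes the density was 1.69 peaks per Mb, beside 1.48 over the domains of all genes. These are counts from 5 genes with no test. A peak in the basal domain, the stretch next to the TSS, was found for 3.17% of genes and for 0 of the 10 SOX genes, which allows a share of up to 30% by counting error alone.

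**Figure D2:**
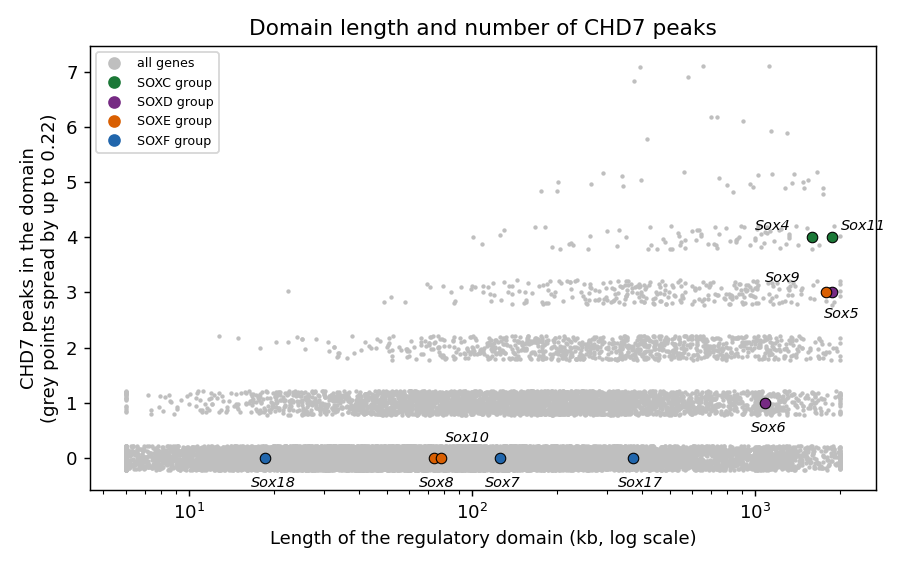
Length of the regulatory domain (kb, log scale) and number of CHD7 peaks in it, for all 21911 protein-coding genes (grey) and the 10 SOX genes (coloured by group). Sox4, Sox5, Sox6, Sox9 and Sox11 lie at domains over 1 Mb with 1 to 4 peaks, and the other 5 lie at 0.

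All 15 SOX peaks lay over 10 kb from any protein-coding TSS, although the Sox4 peak at +11.0 kb was at the TSS of the lncRNA gene Gm26735. None lay within 5 kb of the TSS of any protein-coding transcript, which allows a share of up to 20%, whereas 32.0% of all peaks did. The share over 10 kb from such a TSS was 100% (95% Wilson interval 79.6 to 100%), against 56.7% of all peaks. Over 50 kb were 10 of 15 (66.7%, 41.7 to 84.8) against 24.6%, and over 100 kb were 7 of 15 (46.7%, 24.8 to 69.9) against 13.0%. The median distance to the nearest TSS was 80.0 kb, with a range of 11.0 to 380 kb, and that of all peaks was 13.9 kb. The intervals cover counting error only and treat the 15 peaks as independent, although they came from 5 genes. All 5 genes had domains over 1 Mb. A domain grows that long where the next gene is far, so these distances follow in part from the rule. The part of domain length in them was not tested.

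**Figure D3:**
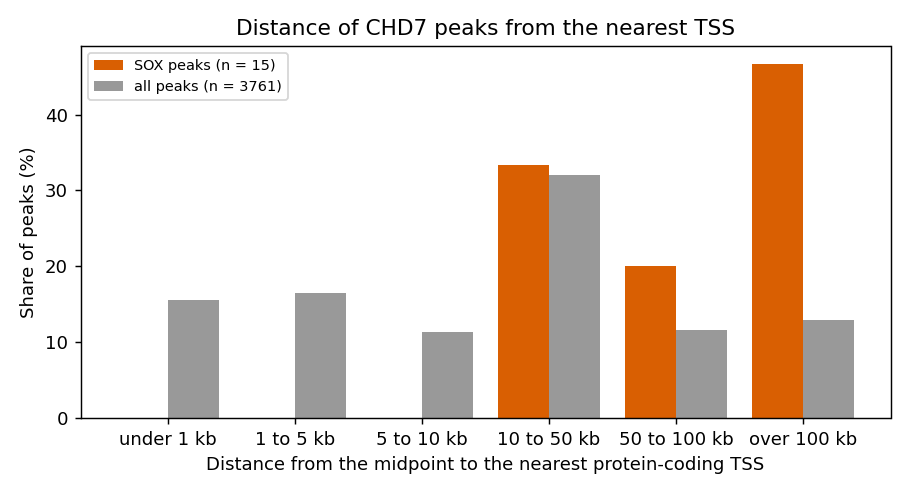
Share of peaks (%) by distance from the midpoint to the nearest protein-coding TSS, for the 15 SOX peaks (orange) and all 3761 peaks (grey). The SOX bars start at 10 to 50 kb (33.3%) and are highest over 100 kb (46.7%), while the grey bars also fill the classes under 10 kb.

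Of the 15 peaks, 11 lay downstream of the TSS, from 11.0 to 621 kb, and 4 upstream, from 260 to 798 kb. The downstream share was 73.3%, beside 58.2% over the 5555 gene and peak pairs of all genes that were over 10 kb apart. Past the end of the SOX gene were 10 of the 11. The nearest protein-coding TSS was that of a SOX gene for 12 of 15 (80.0%), the exceptions being the Sox4 peak in Cdkal1 and the pair of upstream Sox5 peaks. The rule ends a domain at the next gene, so this share follows in part from the rule. No such share over all genes was set beside it. Since 14 of the 15 were also in the domain of a neighbouring gene, their link to the SOX gene rests on the rule and was not tested.

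Most SOX peaks lay between protein-coding genes, and several in lncRNA genes. Outside protein-coding genes were 12 of 15 (80.0%, 95% Wilson interval 54.8 to 93.0), against 46.8% of all peaks. The interval treats the 15 peaks as independent, although they came from 5 genes. All 5 genes had domains over 1 Mb, and the part of domain length in the shares of this paragraph was not tested. Of the 15, 6 were both outside protein-coding genes and in an intron or exon of a lncRNA gene (40.0%), as were 6.35% of all peaks. These 6 belonged to 4 lncRNA genes, namely 2610307P16Rik at Sox4, Gm9866 at Sox11, and Gm11681 and 2610035D17Rik at Sox9. They were not independent, so no interval is given. Another 6 were intergenic (40.0% beside 40.4%), and 3 were in introns of protein-coding genes (20.0% beside 44.3%). The median distance to the nearest lncRNA TSS was 65.5 kb for the SOX peaks and 49.7 kb for all peaks.

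The width and base composition of the SOX peaks were set beside those of the whole list, of which they are a part. Their median width was 926 bp, with quartiles of 466 and 1346 bp, against 703 bp with quartiles of 530 and 1053 bp for all peaks. Wider than 1 kb were 6 of 15 (40.0%, 19.8 to 64.3) against 28.2%. These 6 comprised 1 each of Sox4, Sox11, Sox5 and Sox6 and 2 of Sox9. The median GC content was 45.6%, with a range of 40.8 to 51.7%, and the median of all peaks was 47.5%. The lowest and the highest GC contents were both at Sox11, in the peaks at +212 kb and +30.7 kb. CpG dinucleotides were at a median of 0.209 of the number expected from base composition, beside 0.212 for all peaks, and no SOX peak was above 0.347. Repeats covered a median of 12.2% of a SOX peak and 13.2% of any peak. They covered 50.4% of the Sox5 peak at −773 kb and 39.9% of the Sox4 peak at +72.5 kb, where short reads can align less uniquely.

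**Figure D4:**
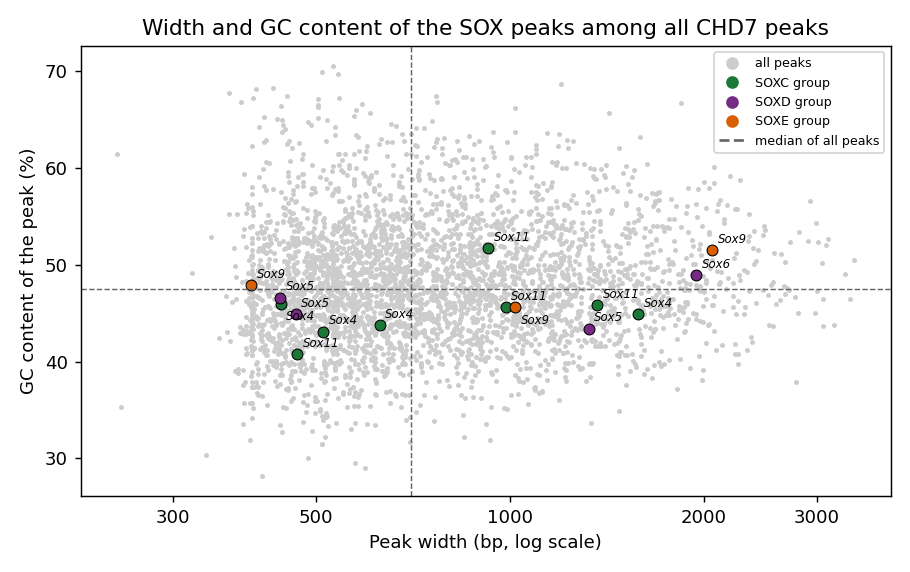
Width (bp, log scale) and GC content (%) of all CHD7 peaks (grey) and of the 15 SOX peaks (coloured by group and labelled by gene), with dashed lines at the medians of all peaks. The SOX peaks spread from 397 to 2063 bp and from 40.8 to 51.7% GC, within the cloud of the other peaks.

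The 300 bp windows were searched on both strands for consensus motifs of 9 families. A SOX consensus was in 5 of 15 (33.3%, 95% Wilson interval 15.2 to 58.3), and in 20.7% of all windows. It was present at Sox4 +225 kb, Sox11 +30.7 kb, Sox5 −773 kb, Sox6 +621 kb and Sox9 +11.0 kb, thus in 1 window of each of the 5 genes. This depended on the stretch searched, since the share was 13.3% in 200 bp and 66.7% in whole peaks (44.4% of all whole peaks). No share over all peaks was set beside the 200 bp value. SOX peaks were also wider (median 926 against 703 bp), and a longer stretch can hold more matches. Whole peaks with a match numbered 3 at Sox4, 2 each at Sox11, Sox5 and Sox9, and 1 at Sox6. The longer form AACAAAG was the match at Sox11, Sox6 and Sox9, seen as its reverse complement CTTTGTT in the printed windows of Sox6 and Sox9. A GATA consensus was in 4 of 15 (26.7%, 10.9 to 52.0) and in 17.4% of all windows. These were Sox4 +225 kb, Sox5 −773 kb and both peaks of the second Sox11 pair, the one at +215 kb with 2 matches on opposite strands. Both motifs occurred together in 2 of 15 windows (13.3%, 3.74 to 37.9) and in 4.79% of all windows. Each of these 3 intervals included the share over all windows. Repeats covered 50.4% of the Sox5 peak at −773 kb, and whether its matches lay in them was not examined.

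Motifs of other factors were searched in the same windows. T-box AGGTGT was in 4 (26.7% beside 16.2%), TCF/LEF TCAAAG in 4 (26.7% beside 21.8%), and TEAD GGAATG in 3 (20.0% beside 17.1%). The 4 windows with a TCF/LEF match were those of Sox4 −360 kb and +11.0 kb and of the first Sox11 pair. E-boxes CACCTG or CAGCTG were in 5 (33.3% beside 34.8%), AP-1 TGACTCA in 2 (13.3% beside 6.59%), SP/KLF GGGCGG in 1 (6.67% beside 11.2%) and the MEF2 consensus in 1 (6.67% beside 2.79%). The MEF2 match was in the Sox4 peak at +11.0 kb, 8 bp from its midpoint, with TCF/LEF and SP/KLF matches in the same window. In the windows of Sox5 −773 kb and Sox9 +380 kb the T-box and E-box matches overlapped, since AGGTGT on 1 strand shares bases with CACCTG on the other. The window of Sox5 −798 kb held no match to any of the 9. A match here is a run of letters, and no binding of these factors was measured.

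**Figure D5:**
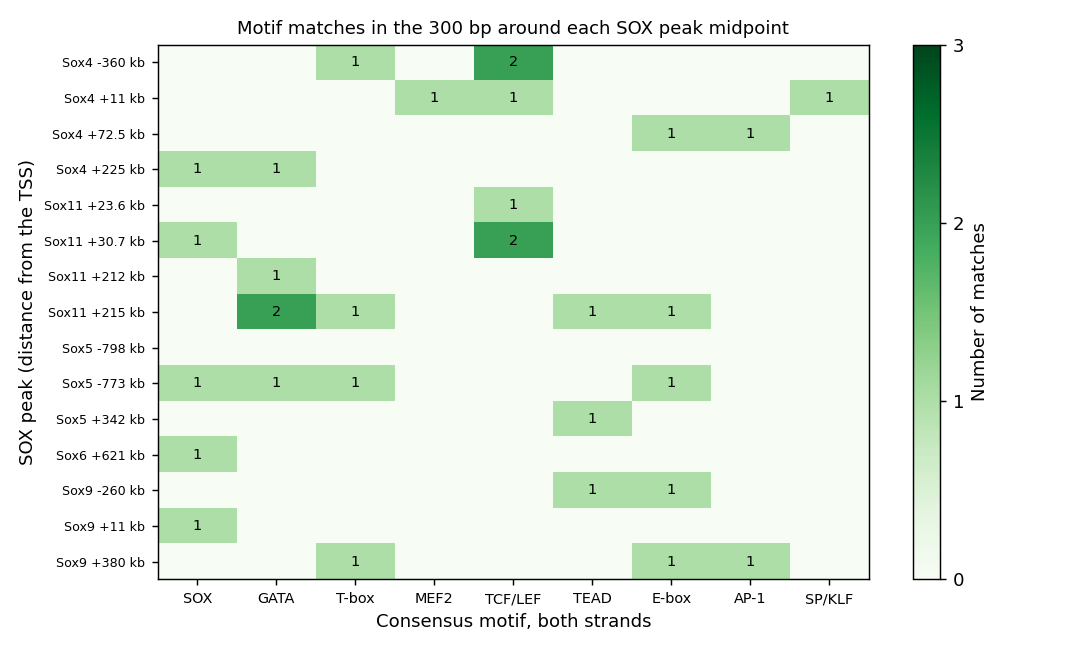
Number of matches to 9 consensus motifs (columns) in the 300 bp around the midpoint of each SOX peak (rows, named by gene and distance from the TSS). A SOX match stands in 5 rows, 1 for each gene with peaks, and both a SOX and a GATA match in 2, while the row of Sox5 −798 kb is empty.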

How the data were processed

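Libraries of 3 anti-CHD7, 3 IgG and 3 input samples were made by CUT&RUN from CP cells at day 5. The authors trimmed the reads with fastp (v0.20.1), aligned them to mm10 with BWA (v0.7.17.4), removed duplicates by molecular identifiers, called peaks per sample against IgG with MACS2 (v2.1.2) and kept those found in at least 2 replicates. The threshold of the calls and the joining of overlapping peaks were not given in the sources used here. The deposited values are positions in bp, read as 0-based starts and printed as 1-based. They carry no depth, so precision could not be set from reads, and a peak list depends on the depth and threshold behind it.

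Each peak was given to genes by the basal plus extension rule, with 1 TSS per protein-coding gene from GENCODE M21 (the main APPRIS transcript), in Python 3.11.15 with pandas 2.3.3. The nearest TSS was taken over all protein-coding transcripts. Sequences came from GRCm38.p6. The code was tested on simulated data. Named genes were the 10 SOX genes, the other 10 genes of the family and the genes sharing a SOX peak. Windows printed were, for each SOX gene with peaks, that of its own peak nearest to its TSS. Those with both SOX and GATA motifs were printed as well, and 2 more were added. The SOX genes, motifs and alternatives were chosen with earlier results of these data known. No statistical test was run. Alternatives changed the association rule, the TSS, the genes that end a domain, the peaks counted and the window searched.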

Additional observations from a re-analysis of the deposited data

How the results depend on the processing

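The results are counts, distances and shares, which have no direction to change. Of the main results under each alternative, 36 values stayed within 1.5 times and 8 moved further. With the basal domain alone, the number of SOX peaks was 0, the number of SOX genes with a peak was 0, and no median distance could be given. With lincRNA genes ending domains too, 8 peaks were counted, with Sox4 at 0, Sox11 at 2 and Sox9 at 2. With peaks wider than the median alone, 8 peaks were counted and the median distance fell from 225 to 123 kb. The share with a SOX motif was 13.3% in 200 bp and 66.7% in whole peaks, and that with a GATA motif was 53.3% in whole peaks, beside 44.4% and 36.8% of all whole peaks. The whole-peak shares are not like for like, since SOX peaks were wider (median 926 against 703 bp). Of the values of single genes, 78 stayed, which include those of the 5 genes that had 0 throughout, and 12 moved. Sox5 had 1 peak with the extension limited to 500 kb or with the single nearest TSS, and Sox6 had 0 with the 500 kb limit.

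No paired analysis was possible because the anti-CHD7 replicates were in 1 list and no IgG or input values were used here. For the same reason no replicate could be left out. With 15 peaks, the intervals of shares are wide, and they treat peaks of the same gene as independent. Peak height was unknown, and a SOX gene listed without a peak may have had signal below the threshold of the calls.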

Other observations

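Of the 10 other genes of the family, 4 had CHD7 peaks in their domains, with 5 peaks in all, beside 22.7% of all protein-coding genes. In their classes of domain length this share was 11.6% for Sox12, 32.6% for Sox13, 48.1% for Sox14 and 40.7% for Sox2. Sox12, the third SOXC gene, had 1 peak in the shortest domain of the 4 (28.9 kb). It lay at −0.895 kb (chr2:152398707-152399210), with a GC content of 66.5%, above that of 99.6% of all peaks. None of the 15 peaks described above was within 5 kb of a protein-coding TSS. Sox13, the third SOXD gene, had an intergenic peak of 1375 bp at −73.7 kb (chr1:133497436-133498810). Sox2, a pluripotency and neural factor, had peaks at −345 kb (chr3:34305164-34305795) in an intron and at −34.8 kb (chr3:34615407-34615904) in an exon of the lncRNA gene Sox2ot. Both were also in the domain of Dnajc19, and the first was nearer to a TSS of that gene, at 224 kb. Sox14, a neural SOXB gene, had a peak at −254 kb (chr9:100130286-100130790) with a SOX match. The peaks of Sox13 and Sox14 were also in the domains of Snrpe and Il20rb. Sry, Sox1, Sox3, Sox15, Sox21 and Sox30 had 0. The share in their classes was 11.6% for Sox15 and Sox30, 32.6% for Sry, Sox1 and Sox21, and 48.1% for Sox3. All 5 peaks of the other SOX genes, 2 of them at Sox2, were upstream of the TSS, where 4 of the 15 above were. Over all genes, 56.0% of gene and peak pairs were downstream. The difference between the 5 and the 15 was not tested. In the family as a whole, 9 of 20 genes had a peak.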
